A study of Mus musculus with 69 samples.

Results

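Mutations in both copies of Aspm, Stil, Cep152, Cdk5rap2, Mcph1, Wdr62, Cenpj, Sass6, Cep135 or Cep63 cause primary microcephaly in people, a brain that is too small at birth. These 10 genes were chosen by name, of 18194 genes with a probe set of their own, and were read in 69 single cells of the mouse cerebral wall. All 10 had at least 1 probe set that matched a single gene. Their proteins sit at the centrosome, the pair of centrioles that organises microtubules, or at the poles of the mitotic spindle. A new centriole is built beside each old one once per cell cycle, and in neural progenitors the centrosome also sets the plane of division and anchors the primary cilium at the ventricle.

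The cells came from CD1 mouse embryos at embryonic day 14, from the dorso-lateral wall of the dorsal forebrain. Small pieces were dissociated with trypsin, single cells were picked by hand at random, and the cDNA of each was amplified and put on a whole-genome Affymetrix array. Per the labels, 3 cells came from the cortical plate (CP), in which newborn neurons settle, and 66 from the ventricular and subventricular zones (VZ/SVZ), where progenitors divide. No cell was treated and no allele is named. Another label of these 3 cells, their description, places them in the VZ/SVZ, and the source label was followed. The labels name no embryo and do not say whether tissue was pooled, so the cells of a group count as 1 sample and no difference below has a p-value. Of 102 cells amplified and 70 put on arrays per the study's design text, 69 are analysed here.

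Values are MAS5 signals on a linear scale. A gene was called above 50 in a cell when its probe set exceeded a signal of 50, a level that 0 of 207 control readings of TrpnX, an RNA the protocol does not list as added, passed. Few cells lay near this level: the highest Aspm signal not above 50 was 40.2 and the lowest above it 150, and the numbers of cells between 25 and 100 ranged from 0 for Cep135 to 7 for Sass6. Of the genes used to split the cells, the nearest signals were 31.9 and 434 either side of the level for Ube2c and 47.8 and 96.3 for Sox2. Between 3713 and 5715 genes were above 50 in a cell, with 4719, 3904 and 3713 in the 3 CP cells and a median of 4712 in VZ/SVZ cells. The bacterial thr RNA, added at 5 copies per cell, was above 50 in 0 of 3 CP and 27 of 66 VZ/SVZ cells, so an mRNA present in a few copies can be missed, and a gene not above 50 is not shown to be absent. All 11 neuron markers were above 50 in each CP cell, with 0 to 2 of 10 apical progenitor markers, against 1 to 10 in VZ/SVZ cells. Markers of endothelial cells, microglia and red blood cells, 10 genes in all, were above 50 in no cell. Of 8 intermediate progenitor markers, 1 to 4 were above 50 per CP cell and 1 to 8 per VZ/SVZ cell. Markers of the remaining types passed 50 in some VZ/SVZ cells and in 0 of 3 CP cells. Per VZ/SVZ cell these were at most 1 of 4 pericyte and meningeal, 3 of 6 interneuron, 1 of 4 Cajal-Retzius and 1 of 3 oligodendrocyte precursor markers. Their summed signals reached 697, 1334, 1355 and 65.4 in that order, and their part in the results was not tested.

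Aspm and Stil differed most between cells with and without the mitotic gene Ube2c. Their promoters, with those of Cep152 and Wdr62, which also read higher with Ube2c by over 1 log2 unit, are shown beside those of Cenpj and Sass6, which were common in these cells but did not. Each line is the 250 bases before the annotated start, from RefSeq on GRCm38.p6, written 5′ to 3′ on the strand of the gene. Capitals mark the CCAAT box, the word CCAAT or its reverse complement ATTGG, a motif found before many genes of the G2 and M phases. The starts are single annotated starts. For Wdr62 another start close by was listed, whose promoter also held 3 boxes. The RefSeq span of each of these 6 genes also reaches upstream of the start used. For Aspm, Wdr62 and Cenpj it reaches past all of the bases shown, and for Stil, Cep152 and Sass6 it ends within them. Boxes before such an outer end were not counted for Aspm, Wdr62 and Cenpj.
Aspm (chr1:139454523-139454772, plus strand): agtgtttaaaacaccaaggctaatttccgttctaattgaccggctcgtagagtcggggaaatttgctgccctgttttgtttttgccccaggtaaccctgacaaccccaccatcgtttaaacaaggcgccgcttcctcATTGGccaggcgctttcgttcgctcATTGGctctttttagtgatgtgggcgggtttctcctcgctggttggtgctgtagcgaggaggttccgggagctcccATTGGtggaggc
Stil (chr4:114999868-115000117, plus strand): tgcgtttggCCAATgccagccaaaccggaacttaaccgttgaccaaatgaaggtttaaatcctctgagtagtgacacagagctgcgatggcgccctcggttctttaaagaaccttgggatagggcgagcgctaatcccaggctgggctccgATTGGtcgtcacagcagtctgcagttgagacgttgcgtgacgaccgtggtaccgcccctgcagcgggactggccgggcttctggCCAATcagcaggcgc
Cep152 (chr2:125625114-125625363, minus strand): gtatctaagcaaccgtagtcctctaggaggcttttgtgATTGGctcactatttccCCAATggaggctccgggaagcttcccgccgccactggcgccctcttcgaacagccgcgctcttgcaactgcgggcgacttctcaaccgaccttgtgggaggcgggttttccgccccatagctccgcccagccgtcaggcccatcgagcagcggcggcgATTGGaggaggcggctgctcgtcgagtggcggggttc
Wdr62 (chr7:30280422-30280671, minus strand): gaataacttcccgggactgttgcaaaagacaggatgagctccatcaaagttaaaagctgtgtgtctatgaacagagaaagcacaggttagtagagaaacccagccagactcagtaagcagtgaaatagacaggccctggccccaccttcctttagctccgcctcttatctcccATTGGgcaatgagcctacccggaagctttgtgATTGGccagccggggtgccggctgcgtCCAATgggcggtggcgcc
Cenpj (chr14:56571847-56572096, minus strand): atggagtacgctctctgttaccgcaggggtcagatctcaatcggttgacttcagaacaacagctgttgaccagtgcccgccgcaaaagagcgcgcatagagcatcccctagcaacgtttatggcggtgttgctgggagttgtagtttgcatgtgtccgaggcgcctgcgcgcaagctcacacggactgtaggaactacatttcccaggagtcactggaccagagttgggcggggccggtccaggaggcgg
Sass6 (chr3:116594708-116594957, plus strand): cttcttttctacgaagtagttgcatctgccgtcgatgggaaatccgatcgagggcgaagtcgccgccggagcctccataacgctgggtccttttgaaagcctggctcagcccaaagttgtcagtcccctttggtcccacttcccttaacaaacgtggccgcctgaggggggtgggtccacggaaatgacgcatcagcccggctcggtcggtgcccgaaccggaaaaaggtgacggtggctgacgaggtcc

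Aspm, Stil, Cep152 and Wdr62 held 3 CCAAT boxes each, and Cenpj, Sass6, Cdk5rap2 and Cep63 held 0. Cep135 held 1, and Mcph1 was not in the promoter table. The count covers both strands of 300 bases, from 250 before to 50 after the start. Of 32851 promoters of that length, 37.4% held at least 1 box and 3.37% held 3 or more. In Aspm the first bases of the boxes lie at -113, -88 and -12, counted from the start. The promoter of Ube2c held 6 boxes and that of Mcm6 held 2. The cell cycle homology region, searched as TTTGAA or TTCAAA, was in 17.9% of promoters, among them those of Aspm, Cdk5rap2, Sass6 and Ube2c. E2F words (TTTCCCGC, TTTGGCGC, TTTCGCGC, TTTGCCGC and their reverse complements) were in 2.26%, among them those of Wdr62, Cep63 and Mcm6. These matches describe letters and were not tied to binding.

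Most signals lay well above or well below 50, with 7 Sass6, 6 Stil and 4 Cep152 cells between 25 and 100, and no cell had all 10 genes above 50. Aspm, which focuses spindle microtubules at the poles, was above 50 in 48 of 66 VZ/SVZ cells (72.7%, exact Clopper-Pearson 95% interval 60.4 to 83.0%). Its signal ran from a lowest value of 0.679 through a median of 1233 to 4090. Of the genes that build the new centriole, Cenpj, which controls its length, was above 50 in 43 of the 66 cells. Stil and Cep152 were above 50 in 37 each, and Sass6, the core protein of the centriole's cartwheel, in 34. Cep63, which brings Cep152 to the parent centriole, was above 50 in 32. Of the other spindle pole and centrosome genes, Cdk5rap2, which ties gamma-tubulin to the pericentriolar material, was above 50 in 16 and Wdr62, a spindle pole protein, in 14. Mcph1, which restrains entry into mitosis through chromosome condensation, was above 50 in 9, and Cep135, which links the cartwheel to the microtubule wall, in 2. These shares are read on different probe sets and do not rank the genes by amount.

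The genes lie on 9 chromosomes (RefSeq spans, GRCm38.p6). Aspm spans chr1:139454188-139494088, Cep152 chr2:125549864-125625174 and Sass6 chr3:116594938-116630986. Stil at chr4:115000108-115043203 and Cdk5rap2 at chr4:70216855-70410435 share a chromosome. Cep135 spans chr5:76588653-76646466, Wdr62 chr7:30240138-30281908 and Mcph1 chr8:18595116-18808089. Cep63 spans chr9:102586578-102626564 and Cenpj chr14:56526761-56575489.

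**Figure D1:**
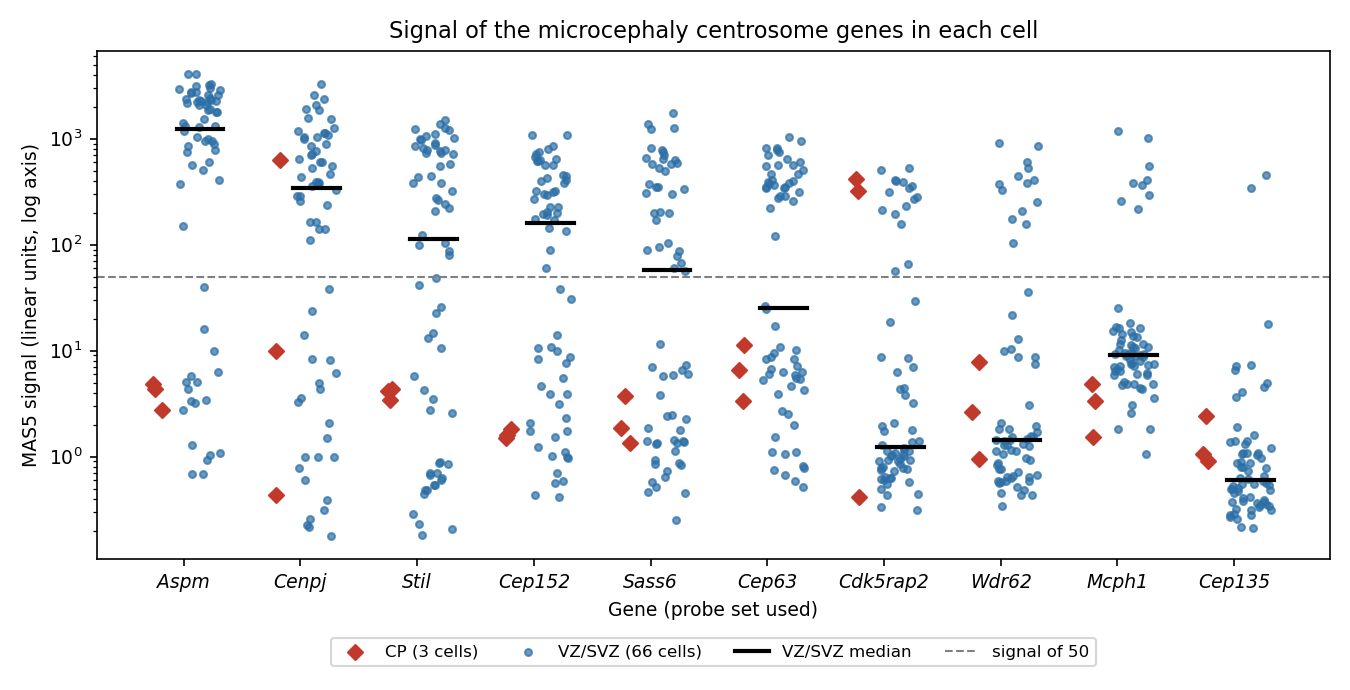
MAS5 signal of each gene on a log axis, with each point 1 cell: red diamonds are the 3 CP cells, blue points the 66 VZ/SVZ cells, black bars VZ/SVZ medians and the dashed line a signal of 50. Most genes fall into a high and a low cloud with few cells near 50, and Aspm lies above 50 in 48 of 66 VZ/SVZ cells and in 0 of 3 CP cells.

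In 6 genes more than 1 probe set was present, and the sets disagreed on how many cells were above 50. The Aspm set used was above 50 in 48 of 69 cells, and its 4 other sets in 6, 5, 2 and 0, all of them among those 48. A second Cdk5rap2 set was above 50 in 3 cells, again all among the 18 of the set used. A second Sass6 set was above 50 in 5 cells, of which only 2 were above 50 on the set used, so those sets do not read the same cells. The second sets of Mcph1, Wdr62 and Cep63 were above 50 in 0 cells. A share on the set used can therefore miss transcripts that another set would read.

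A VZ/SVZ cell had 1 to 7 of the 10 genes above 50, with a median of 4 and a mean of 4.12. The 3 CP cells had 0, 1 and 2. Aspm and Stil were above 50 together in 34 cells, which is 70.8% of the Aspm cells and 91.9% of the Stil cells (Pearson r of log2 signal 0.47 over 66 cells). Stil and Cep152 were above 50 together in 27 cells, 73.0% of either gene's cells (r = 0.44). Within the 55 cells with Ube2c above 50, r was 0.18 for Aspm with Stil and 0.40 for Stil with Cep152. Sass6 and Cenpj, both needed for a new centriole, were together in 20 cells (r = -0.20). The points of these correlations share the array platform and each cell's own amplification, and they are descriptions. Aspm also ran with the number of genes above 50 in a cell (r = 0.57 over VZ/SVZ cells), while Cenpj did not (r = -0.13).

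The relation to the cell cycle was read with Ube2c, the ubiquitin-conjugating enzyme of the anaphase-promoting complex, which peaks in G2 and mitosis, and Mcm6, a subunit of the replicative helicase. Ube2c was above 50 in 55 of 66 VZ/SVZ cells. Aspm was above 50 in 47 of those 55 cells and in 1 of the other 11, a difference of 76.4 percentage points (Newcombe 95% interval 45.5 to 86.6, counting error only). Its lowest, median and highest signals were 0.679, 1774 and 4090 with Ube2c above 50, and 0.693, 3.19 and 404 without. Only the cell at 404 passed 50 among the 11, so the groups differ in most cells while their ranges overlap.

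Stil, the protein that turns on centriole assembly, was above 50 in 37 of the 55 cells and in 0 of the 11 (67.3 points, 38.2 to 78.2). Its lowest, median and highest signals were 0.208, 273 and 1504 with Ube2c above 50, and 0.184, 0.701 and 4.27 without. No cell without Ube2c came near the level, although 18 cells with Ube2c also lay at or under it. The mean log2 signal was higher with Ube2c above 50 by 6.37 for Aspm and by 4.49 for Stil. Cep152, the scaffold that recruits Plk4, was above 50 in 34 of the 55 and 3 of the 11 cells, 34.5 points more (2.41 to 55.6; 1.82 on the log2 scale). Wdr62 was above 50 in 14 of the 55 and 0 of the 11 cells, and that interval includes 0 (25.5 points, -2.17 to 38.3; 1.61 on the log2 scale). Averaged over all probe sets of a gene, the log2 difference was 1.56 for Aspm and 0.75 for Wdr62.

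The remaining genes differed by less than 1 log2 unit or went the other way. Sass6 was above 50 in 29 of 55 against 5 of 11 cells, Cep63 in 28 against 4, Cdk5rap2 in 15 against 1, Mcph1 in 9 against 0 and Cep135 in 2 against 0. Each of these intervals includes 0. Cenpj was above 50 in 34 of the 55 cells with Ube2c and in 9 of the 11 without, a difference of -20 points (-38.6 to 11.7), with medians of 359.6 and 330.0. So 4 of the 10 genes were higher by at least 1 log2 unit with Ube2c above 50, where 15.1% of all 18194 genes and 31.2% of the 8784 genes above 50 in at least 10% of cells were. Lower by as much was 1 gene, Cenpj, where 6.39% and 12.4% were. The share of the set is near that of detected genes, so the count says little of the set as a whole, and the differences of Aspm and Stil are single-gene results.

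The cells without Ube2c differed in more than the cycle. Of these 11 cells, 9 had Tubb3 above 50, 1 had Sox2, 6 carried the title letter D, and their median number of genes above 50 was 4098, against 4879 in cells with Ube2c. The part of each in the result was not tested. Without the letter D cells the log2 difference was 5.84 for Aspm and 4.57 for Stil (54 cells with Ube2c against 5 without). Within letter X (29 against 2 cells) the differences were 6.88 for Aspm and 4.19 for Stil, while that of Cep152 turned to -0.45. That of Cdk5rap2, 0.93 over all VZ/SVZ cells, turned to -2.53. Among cells with Tubb3 not above 50 (29 against 2 cells) the differences were 4.64 for Aspm and 5.26 for Stil. These splits leave 5 or 2 cells without Ube2c.

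Crossing the Ube2c and Mcm6 calls gave 4 classes of VZ/SVZ cells, in which Aspm and Stil differed. Aspm was above 50 in 15 of 15 cells with Ube2c but not Mcm6, in 32 of 40 with both, in 1 of 4 with Mcm6 only and in 0 of 7 with neither. Its median signal in those 4 classes was 2350, 1161, 2.97 and 3.32, and the lowest of the 15 Ube2c-only cells was 372. Aspm was 2.04 log2 units higher in Ube2c-only cells than in cells with both, a difference that 0.473% of all genes reached. It was the 1 member higher by over 1 log2 unit, where 6.32% of all and 12.9% of detected genes were, and 0 members were lower, where 3.35% and 6.92% were. Stil was above 50 in 9 of the 15 and 28 of the 40 cells, 0.88 log2 units lower in Ube2c-only cells. Each difference of shares between these 2 classes has an interval that includes 0 (20 points, -2.49 to 34.8 for Aspm, and -10 points, -37.0 to 15.4 for Stil). All 8 cells with Ube2c and without Aspm had Mcm6 above 50, and 3 of them had Stil. All 3 cells with Stil and without Aspm were among them.

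**Figure D2:**
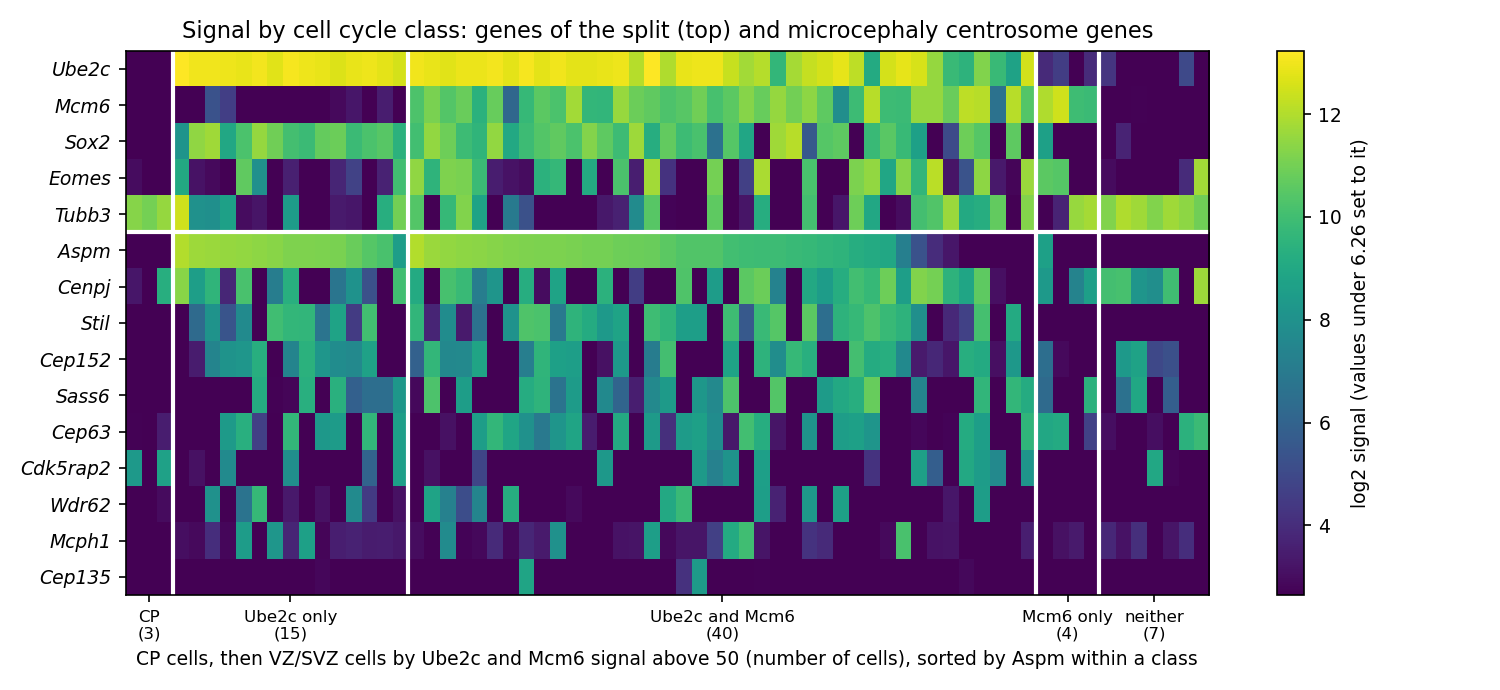
Log2 signal of the 5 splitting genes (top) and the 10 microcephaly genes (bottom), with 1 column per cell; the 3 CP cells stand left, then VZ/SVZ cells by whether Ube2c and Mcm6 were above 50, sorted by Aspm. Aspm is high across the 15 Ube2c-only cells and most of the 40 cells with both, and Stil is dark in all 11 cells without Ube2c.

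Splitting by Mcm6 alone gave smaller differences, with 44 cells above 50 and 22 not. Stil was above 50 in 28 of 44 against 9 of 22 cells (1.68 log2 units higher, 22.7 points, -2.42 to 44.4), and Sass6 was 1.04 log2 units higher. Those 2 of 10 genes passed 1 log2 unit upward, where 3.56% of all genes and 7.37% of detected genes did, and 0 passed it downward, where 3.2% and 6.58% did. A second Mcm6 probe set was above 50 in 47 cells, 42 of them shared with the 44 of the set used. Aspm differed by 0.19, and within Ube2c cells it was lower with Mcm6, as given above.

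Likeness between genes was read as the correlation of log2 signal. For Aspm, over 69 cells and 7775 genes compared, the highest Pearson correlations were with Tacc3 (r = 0.90), a spindle protein, then Fam83d, Nek2, Bora, Kif2c, Plk1, Ccnb2 and Kif4, the last with r = 0.87. Those of Stil were lower and went to Gmnn, the inhibitor of replication licensing (r = 0.68), Melk and Spag5. Cep152 ran closest to Cdkn2c (r = 0.52), Gltp and Ncaph. No gene passed r = 0.50 with Cdk5rap2, Cenpj, Sass6 or Cep63, and Wdr62 reached 0.50 with Trp53i13. Apart from Aspm and Stil the likeness is weak, and in sparse signals such values are no finding.

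The 3 CP cells had none of these genes above 50 apart from Cdk5rap2 and Cenpj. Aspm read 4.89, 4.39 and 2.75 in the CP cells, against a median of 1233 in VZ/SVZ cells (-5.86 on the log2 scale, or -1.45 averaged over all its probe sets). Stil read 4.16, 4.35 and 3.41 in CP cells, against a VZ/SVZ median of 114. Cep152 read 1.60, 1.49 and 1.84 in CP cells, against a VZ/SVZ median of 158. The CP cells were all low for these 3 genes, but VZ/SVZ cells reach as low. Counting each cell as separate, the interval for the share of Aspm lay below 0 (-72.7 points, -82.0 to -15.4). Those of the other microcephaly genes included 0. With 3 CP cells and no embryo named, these intervals cannot decide whether the zones differ in any of these genes.

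Cdk5rap2 went the other way. It read 324, 0.415 and 420 in the CP cells, so 2 of 3 were above 50, against 16 of 66 VZ/SVZ cells (2.55 log2 units higher in CP, 42.4 points, -4.91 to 71.0). Cenpj read 9.84, 0.434 and 631 in CP cells, against a VZ/SVZ median of 345. Single cells set the size of both: leaving out each CP cell gave 1.48 to 4.51 for Cdk5rap2 and -4.11 to -0.78 for Cenpj. Averaged over its 3 probe sets, the Cdk5rap2 difference was 0.73, under 1 log2 unit. Of the 10 genes, 8 had a mean in CP cells at least 1 log2 unit below that of VZ/SVZ cells, where 20.4% of all genes and 42.1% of detected genes were, and 1 was higher, where 10.6% and 17.7% were. The median difference was -2.41 over the 10 genes, against -0.70 over detected genes.

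None of the CP cells had Ube2c or Mcm6 above 50, so they were also set against the 7 VZ/SVZ cells with neither gene. All 7 had Tubb3 above 50, 1 had Eomes, and they were not otherwise alike to CP cells: Lhx2, a progenitor factor, was above 50 in 0 of 3 CP cells and 7 of 7 of them (-7.92 log2 units). Against them the median difference was -0.36, and 4 of 10 genes were lower by at least 1 log2 unit, where 15% of all and 29.5% of detected genes were, and 1 was higher, where 12.1% and 21.2% were. These 7 cells were singled out after the data were seen. Aspm and Stil were above 50 in 0 of 3 and 0 of 7 cells. Cenpj was above 50 in 1 of 3 CP cells, against 6 of 7 of those VZ/SVZ cells (-3.57 log2 units), and Cep152 in 0 of 3, against 2 of 7 (-2.38). Cdk5rap2 was above 50 in 2 of 3, against 1 of 7 (2.99). Every one of these intervals includes 0.

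Sox2, a transcription factor of apical progenitors, was above 50 in 49 VZ/SVZ cells, 48 of which also had Ube2c. Aspm was above 50 in 45 of 49 cells with Sox2 and in 3 of 17 without (74.2 points, 48.3 to 86.7). Its lowest, median and highest signals were 1.07, 1906 and 4090 with Sox2, and 0.679, 3.45 and 954 without. Stil was above 50 in 34 of 49 against 3 of 17 cells (51.7 points, 24.5 to 67.7), and Cep152 in 32 against 5 (35.9 points, 8.35 to 55.9). In all, 4 of 10 genes were at least 1 log2 unit higher with Sox2, where 12.3% of all and 25.5% of detected genes were, and 1, Cenpj, was lower, where 6.76% and 13.5% were. Cells with Sox2 had a median of 4889 genes above 50, against 4187 without, and the part of depth was not tested. Averaged over all probe sets of a gene, the differences of Aspm and Sass6 with Sox2 were 1.51 and 0.97. Within cells that had Ube2c above 50, Aspm was above 50 in 44 of 48 cells with Sox2 against 3 of 7 without (4.17 log2 units), and Stil in 34 of 48 against 3 of 7 (1.31). Those 7 cells without Sox2 all had Mcm6 and Tubb3 above 50.

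Tubb3, the neuronal beta-tubulin, split the VZ/SVZ cells the other way for Aspm and Stil, with 35 cells above 50 and 31 not. Aspm was above 50 in 19 of 35 cells with Tubb3 and in 29 of 31 without (-39.3 points, -56.0 to -18.4). Stil was above 50 in 14 against 23 cells (-34.2 points, -53.0 to -10.2) and Sass6 in 14 against 20 (-24.5 points, -44.9 to -0.46). Cenpj and Cdk5rap2 were higher with Tubb3. Cenpj was above 50 in 27 of 35 cells with Tubb3 and in 16 of 31 without (25.5 points, 2.49 to 45.5), and its medians were 549 and 110. Cdk5rap2 was above 50 in 12 of 35 against 4 of 31 cells (21.4 points, 0.52 to 39.7). At least 1 log2 unit lower were 4 of 10 genes, where 7.08% of all and 14.6% of detected genes were, and higher were 2, where 5.17% and 10.7% were. Averaged over all probe sets of a gene, Aspm differed by -0.34 log2 units and Cdk5rap2 by 0.55, against -2.81 and 1.32 on the sets used.

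Within the 55 Ube2c cells, the signs of these 5 genes held. Between cells with Tubb3 and without, Aspm differed by -1.54 log2 units (19 of 26 against 28 of 29 cells), Stil by -1.63 and Sass6 by -1.59. Cenpj was 1.97 higher with Tubb3 (19 of 26 against 15 of 29 cells) and Cdk5rap2 1.71 higher (11 of 26 against 4 of 29). Within letter X, Cenpj was 1.62 higher with Tubb3 (8 of 11 against 11 of 20 cells).

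**Figure D3:**
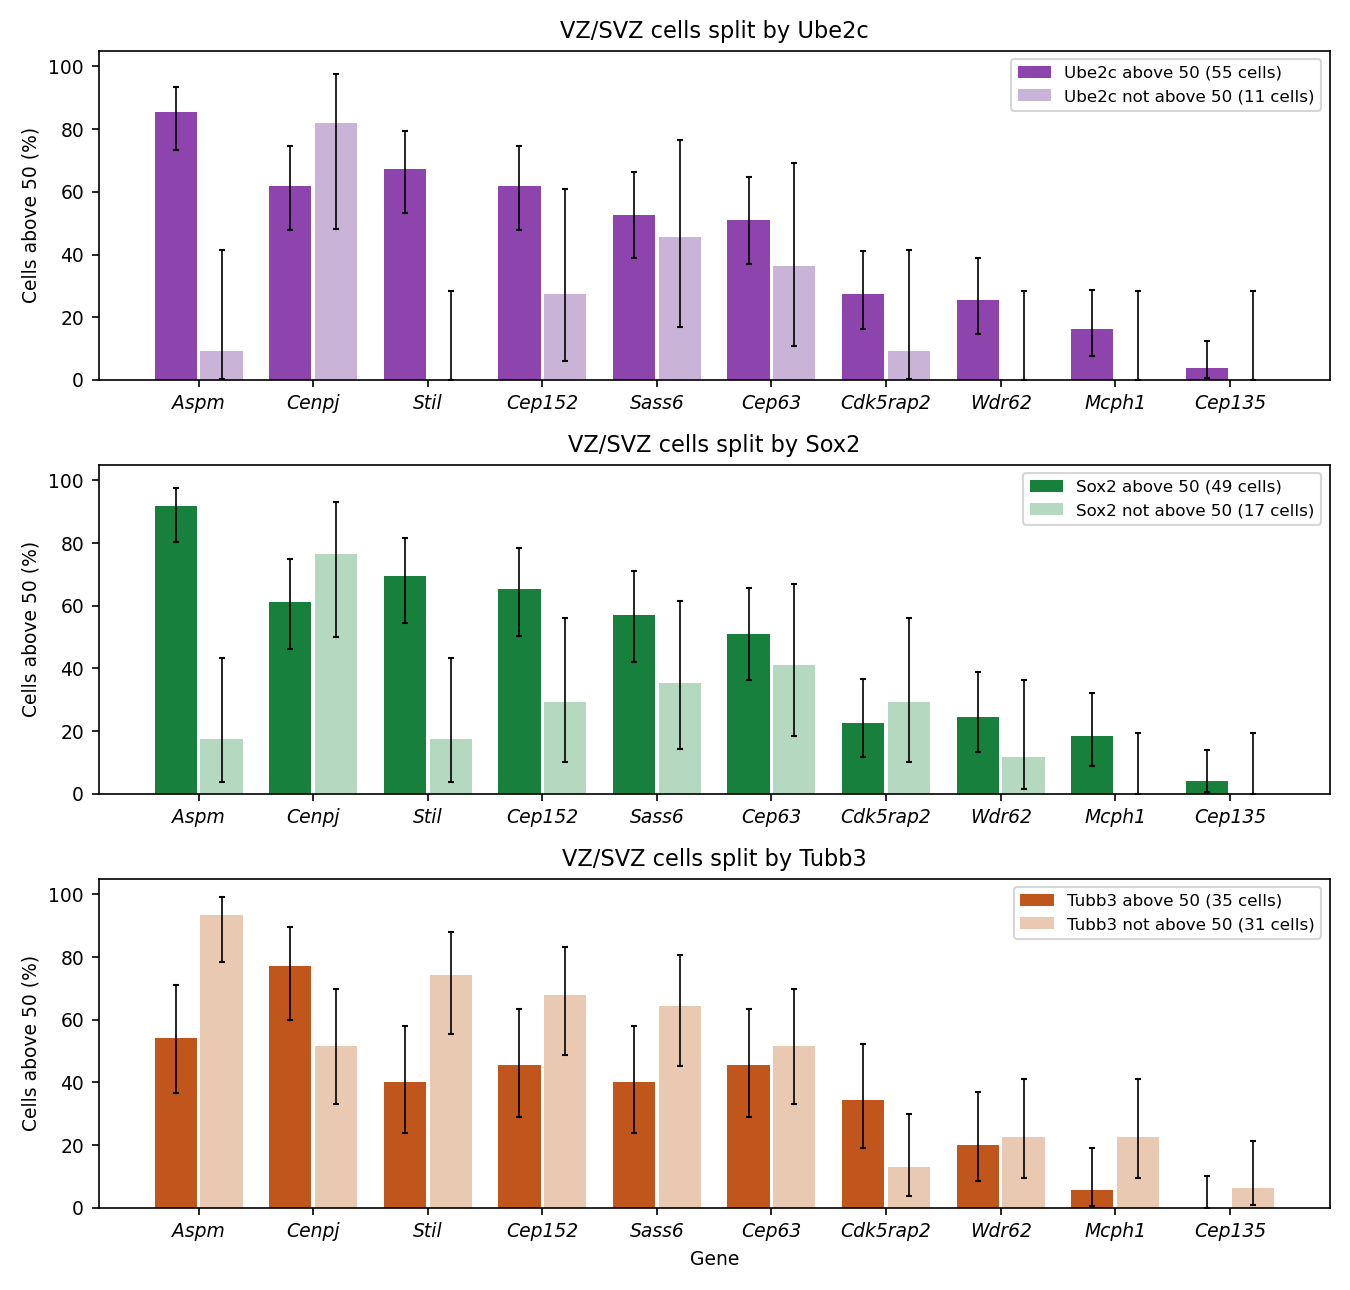
Share of VZ/SVZ cells above 50 for each gene, in cells with the splitting gene above 50 (dark bars) and in the others (pale bars), for Ube2c, Sox2 and Tubb3 from top to bottom; error bars are exact 95% intervals. Aspm stands at 85.5% and 9.09% in the Ube2c split, and Cenpj is the tall pale bar of that panel at 81.8%.

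Eomes, the transcription factor of intermediate progenitors, was above 50 in 28 VZ/SVZ cells. Aspm was above 50 in 22 of 28 cells with Eomes and in 26 of 38 without (10.2 points, -11.9 to 29.6), and Stil in 17 and 20. Cenpj (1.26), Cep63 (1.14) and Cep152 (1.12) were more than 1 log2 unit higher with Eomes, 3 of 10 genes where 4.01% of all and 8.28% of detected genes were, and 0 were lower by as much, where 5.04% and 10.4% were. Every interval of the shares includes 0, and within letter X the differences in Cenpj and Cep63 turned to -0.43 and -0.67. That of Cep152 in letter X was 1.74. Among cells with Ube2c above 50 (25 with Eomes against 30 without), the differences were 1.71 for Cenpj, 0.41 for Cep63 and 1.22 for Cep152.

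Combining the 3 markers, the 10 cells with Tubb3 but neither Eomes nor Sox2 had a mean of 1.70 of the genes above 50. The 20 cells with Sox2 alone had 4.80, the 11 with all 3 markers 5.00, and the 6 with Eomes and Tubb3 without Sox2 had 4.33. Ube2c was above 50 in 20% of the first class and 100% of the second.

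**Figure D4:**
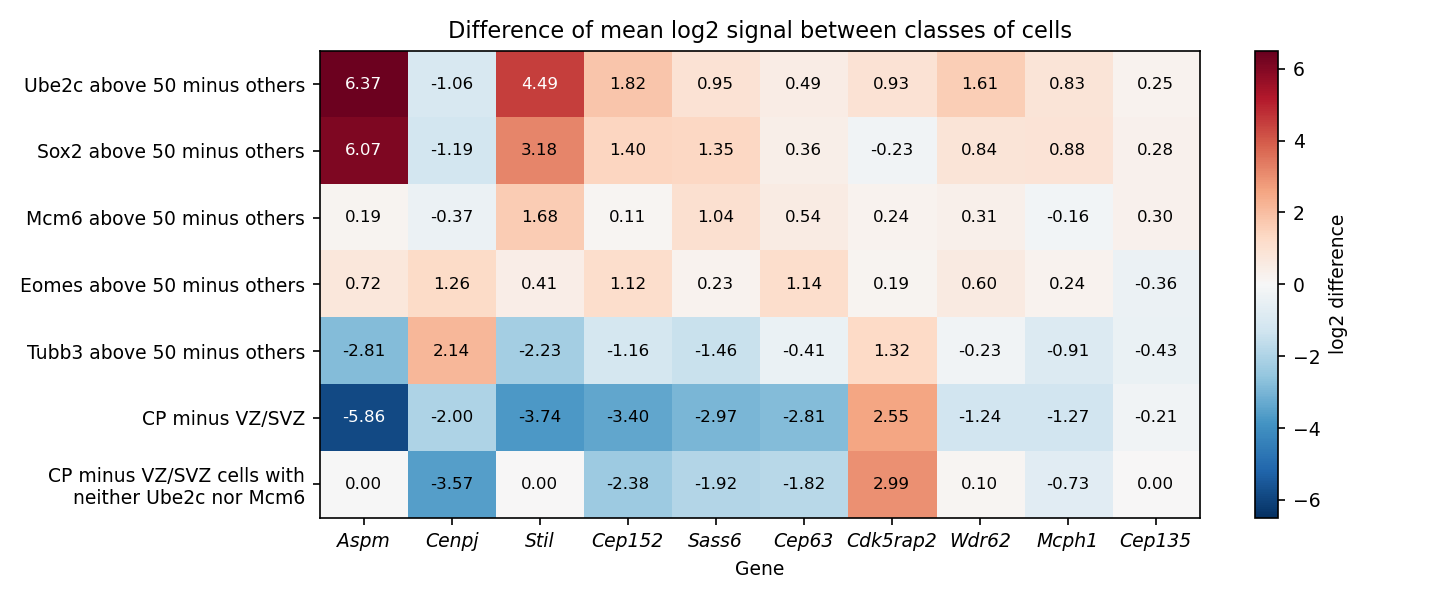
Difference of mean log2 signal (colour and printed value; red is higher in the first class named) for the 10 genes in 7 comparisons of cells. Aspm and Stil are red for Ube2c and Sox2 and blue for Tubb3, Cenpj takes the opposite sign in those 3 rows, and Cdk5rap2 is the only red cell of the row that sets CP against VZ/SVZ.

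The cell titles carry a letter that the labels do not explain. The mean number of genes above 50 was 4.86 in letter A (7 cells), 4.79 in B (14), 4.86 in C (7), 1.57 in D (7) and 4.06 in X (31). Letters moved with the markers: Eomes was above 50 in 0 of 7 A, 13 of 14 B, 7 of 7 C, 0 of 7 D and 8 of 31 X cells, and letter D had Sox2 in 0 of 7 and Tubb3 in 7 of 7. How the letters were given, and so whether they stand apart from these markers, cannot be told from the labels. Aspm was above 50 in 7 of 7 A, 11 of 14 B, 5 of 7 C, 0 of 7 D and 25 of 31 X cells. In letter D its signal was at most 6.29 and that of Stil at most 4.27, while Cenpj was above 50 in 5 of 7 D cells with a median of 291. Cenpj was above 50 in 2 of 7 A and 12 of 14 B cells. Cdk5rap2 was above 50 in 5 of 7 A and 4 of 7 C cells, but in 2 of 14 B and 4 of 31 X cells. The intervals for groups of 7 are wide, 3.67 to 71.0% for 2 of 7.

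**Figure D5:**
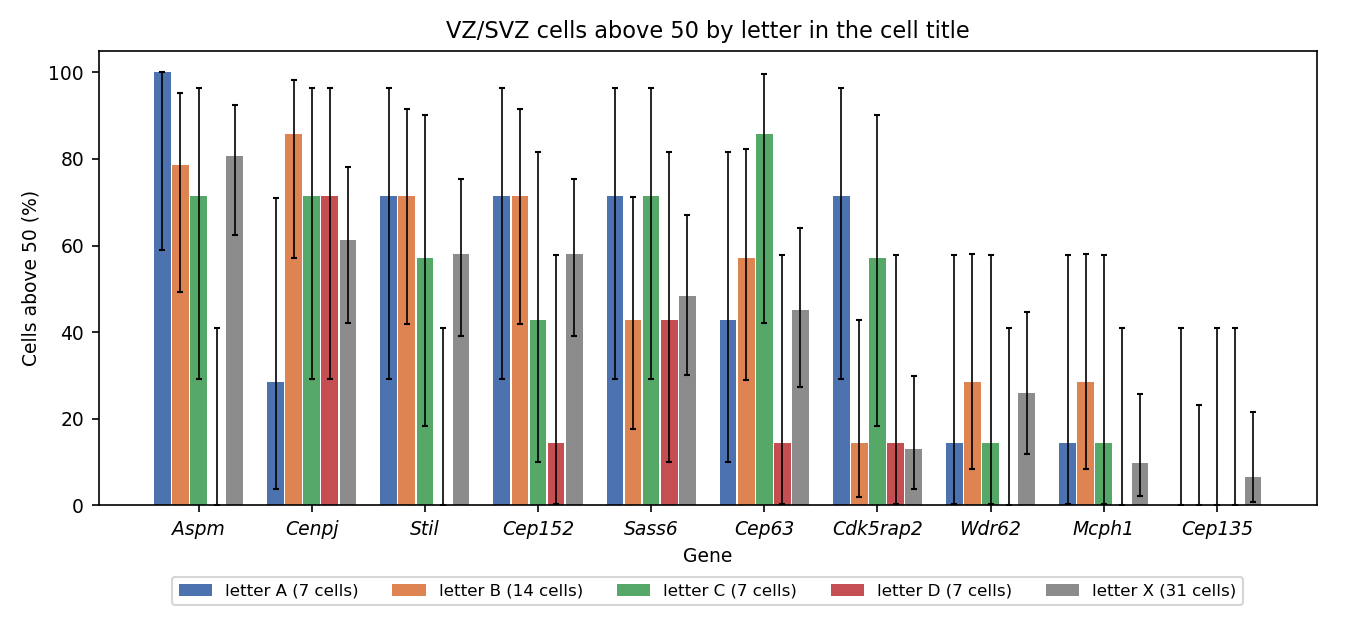
Share of VZ/SVZ cells above 50 for each gene by the letter in the cell title, with exact 95% intervals. Letter D stands at 0 for Aspm and Stil and at 71.4% for Cenpj.

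Other centriole and spindle pole genes, and other microcephaly genes of any function, were read beside the 10. The lists were chosen with earlier results known. Of 22 further centriole assembly genes, 11 were at least 1 log2 unit higher with Ube2c above 50 and 0 lower, where 31.2% of detected genes were higher and 12.4% lower (15.1% and 6.39% of all genes). Among them were Cep192 (5.84), which recruits Plk4, Plk4 itself (5.55), the kinase that starts duplication, and Ccnf (5.43). Of 33 genes of the pericentriolar material and spindle pole, 20 were higher and 3 lower, led by the mitotic kinase Plk1 (7.21), Tacc3 (7.18) and Tpx2 (6.94). Of 26 other microcephaly genes, 15 were higher and 2 lower, with Bub1 (6.45) and Cdk6 (5.94) first. The lists are not separate sets, since Plk4 is counted both here and among the centriole assembly genes. By comparison, 22 of 22 G2/M genes and 17 of 20 S phase genes were higher. The medians of the lists were 0.93 for centriole assembly, 1.16 for spindle pole and 1.13 for other microcephaly genes, against 0.94 for the 10 genes and 0.44 for detected genes.

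In CP against VZ/SVZ cells, 16 of the 22 centriole assembly genes were at least 1 log2 unit lower and 1 higher, and of the 33 spindle pole genes 24 were lower and 4 higher, where 42.1% of detected genes were lower and 17.7% higher (20.4% and 10.6% of all genes). Nin, which anchors microtubules at the mother centriole, was 6.22 log2 units higher in CP (above 50 in 3 of 3 CP and 6 of 66 VZ/SVZ cells), and 6.82 higher against the 7 cells without Ube2c and Mcm6 (0 of 7). Against those 7 cells, 9 of the 22 centriole genes and 6 of the 33 spindle pole genes were lower, with medians of -0.37 and -0.13, where 29.5% of detected and 15% of all genes were lower, so these counts are no result about the lists. In the Tubb3 split, 1 of the 22 centriole assembly genes was at least 1 log2 unit higher and 10 were lower (median -0.58). Of detected genes 10.7% were higher and 14.6% lower, and of all genes 5.17% and 7.08%. The higher gene was Cep120, a partner of Cenpj in centriole elongation (2.26 log2 units). It was above 50 in 26 of 35 cells with Tubb3 and in 13 of 31 without. Plk4 was above 50 in 23 of 35 against 28 of 31 cells (-1.91).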

How the data were processed

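The authors deposited 1 linear intensity per probe set and cell, computed with MAS5 per the submitters' processing notes. The version and scaling of MAS5 are not given in the sources used here. Trimmed means per cell (2% cut at either end) were 50.1 to 142. Those of the 3 CP cells were 76.1, 50.1 and 55.6, and the lowest of a VZ/SVZ cell was 59.2. The main values were not rescaled for this. Identical values were found in 0 pairs of cells. Gene names came from GEO's platform annotation, in which, of 45101 probe sets, 34958 had 1 gene, 932 several and 9211 none. Of these, 34754 matched the RefSeq table of GRCm38.p6 and 0 changed symbol. For each of 18194 genes the probe set of highest mean log2 intensity was taken.

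For log2 means, values under 6.26 (2.65 on the log2 scale), the 95th percentile of 207 TrpnX control values, were set to it. Of all values 18.0% were above 50. Intervals are at 95%, Clopper-Pearson (exact) for a share and Newcombe's for a difference between 2 shares, and cover counting error only. A count of differences uses a rule of size (1 log2 unit), not a test, and no p-value was computed, since no animal is named. The routine for differences was run on simulated data with known shifts, which checks its arithmetic and not the results given here. Python 3.11.15, numpy 2.4.6, pandas 2.3.3, scipy 1.17.1 and matplotlib 3.10.9 were used.

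The 10 genes, the 15 gene lists (173 genes, 169 with a probe set) and the splits were chosen with earlier results of these data known. Named were all 10 genes, the 5 splitting genes, up to 4 genes per list with the largest difference, and the genes most correlated with a member (8 for Aspm, 3 for others above 50 in at least 20% of cells). Alternatives changed the floor, scaling, threshold, probe set rule and the cells compared. Protein sequences were not used here.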

Additional observations from a re-analysis of the deposited data

Results flagged for a closer look

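In groups of 7 cells with 1 title letter, a cell was marked where its gap to the nearest other cell, over the range of the group's log2 signals (values under the floor set to it), passed Dixon's critical value of 0.568. Of 30 groups tested, 10 were marked, 9 for the highest and 1 for the lowest cell. Chance marks about 1 in 20 groups of normally spread values, and these signals fall into a high and a low cloud.

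In letter A, 1 cell had Mcph1 at 549.8 while the others lay between 5.86 and 13.5. Another A cell had Wdr62 at 530.1, with the others between 0.717 and 21.6. In letter C, 1 cell had Mcph1 at 384.3 (others 4.34 to 25.1), and 1 had Wdr62 at 383.6 (others 0.583 to 8.72) and Cep135 at 6.52 (others 0.27 to 1.58). The lowest Cep63 signal of letter C was 7.17, where the others read 219.6 to 605. In letter D, the highest Aspm signal was 6.29 (others 0.927 to 4.38), which like the Cep135 value lies just above the floor, with all others under it. Also in letter D, 1 cell had Cep152 at 425.6 (others 0.417 to 37.8), another had Cdk5rap2 at 195.1 (others 0.315 to 6.96), and a further one had Cep63 at 702.3 (others 1.54 to 26.1).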

How the results depend on the processing

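No paired analysis was possible because replicate numbers were given in accession order and pair no cells. All 81 recomputed medians, means and ranges had the sign of the reported value, and 24 differed from it by a factor over 1.5. Of the 81, 5 are mean counts of genes per cell and 4 are ranges over title letters, which cannot be negative. The CP median of -2.41 became -1.28 with values under 50 set to 50, -1.48 over all probe sets of a gene and -0.36 against VZ/SVZ cells with neither Ube2c nor Mcm6, and -3.03 to -1.96 when each CP cell was left out. Without CP replicate 2 the Cenpj difference was -0.78, and without replicate 3 it was -4.11. The Ube2c median of 0.94 ranged from 0.60 to 1.59. Of 30 gene differences of at least 1 log2 unit, 9 stayed at least that large under every setting and 24 kept their sign. Against cells with neither Ube2c nor Mcm6, the CP difference of Stil was 0 and that of Aspm -0.00093. Turned round were Wdr62 in CP against cells with neither gene (0.10), Cep152 with Ube2c in letter X (-0.45), Cenpj with Ube2c among Mcm6 cells (0.23) and among cells without Tubb3 (0.47), and with Eomes in letter X Cenpj (-0.43) and Cep63 (-0.67). Averaging all probe sets brought Aspm to -1.45 and Cdk5rap2 to 0.73 in CP, and Aspm to 1.56 with Ube2c, 1.51 with Sox2 and -0.34 with Tubb3. The settings without letter D and with cells lacking both cycle genes were chosen after seeing the data. The cause was not tested. The limit is 3 CP cells, 11 cells without Ube2c, and a chance of missing an mRNA of few copies.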
